A study of Saccharomyces cerevisiae with 14 samples.

Results

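A budding yeast strain labelled null (strain yjdi381), of a series on TAF1 mutants, was compared with the strain labelled FHT-WT1 (yjdi353). The comparison used the 2 arrays titled null and the 2 titled FHT-WT1, which are 4 of the 14 arrays of the series. Each array carried a strain together with one reference strain, yjdi363, in the other dye, on glass slides printed with PCR products of yeast genes. The strain was in Cy5 on array 1 of a group and in Cy3 on array 2. The other arrays held 4 further strains, DT1, TF1, HT4 and PB1, on 8 arrays, and the reference against itself (homotypic) on 2. The protocol field calls the strains TAF1 mutants induced by galactose, and the codes are not explained. All strains, the reference included, were grown in medium lacking leucine with 3% raffinose to an OD600 of about 0.7. They received 2% galactose for 30 min at 25 °C and were held at 37 °C for 45 min, and polyA RNA was taken. Every value below is therefore from heat-treated cells in galactose. The labels do not give the genotypes, nor what form of TAF1, if any, the null strain carries. Nothing says that the 2 arrays of a strain came from separate cultures, so the p-values speak of array-to-array spread alone, possibly of technical origin.

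TAF1 is a subunit of the general factor TFIID. That factor brings the TATA-binding protein and a set of TBP-associated factors to core promoters so that RNA polymerase II can start transcription. TFIID shares some subunits with SAGA, the second complex that delivers the TATA-binding protein in yeast. Ribosomal protein genes are a well known TFIID-dependent class, whereas many stress-induced genes with a TATA box are known to lean on SAGA.

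Values are log2 ratios of strain to reference after each array was centred on its median over the named genes, so a level of 0 is the level of the median gene, and a shift of all mRNA together cannot be seen. The table does not state the direction of its ratios. They were read as strain over reference because TAF1 was then low in the null strain, so the TAF1 value sets the direction and is not separate support for it. Of 5548 named genes, 5535 had a value on every array and were tested. The spread of centred values over genes (SD) was 0.348 and 0.419 on the null arrays, 0.178 and 0.226 on the FHT-WT1 arrays, and 0.164 and 0.167 on the homotypic arrays. The null arrays correlated with each other over genes at r = 0.5095, while the FHT-WT1 arrays correlated at -0.0059. With arrays of DT1, TF1, HT4 and PB1 in the opposite dye orientation, the null arrays correlated at 0.4424 to 0.6206. In the same dye orientation these correlations were 0.5544 to 0.8628. The 0.5095 was therefore not particular to the null strain. FHT-WT1 array 1 correlated at 0.5639 with null array 1, which has the same dye orientation, and FHT-WT1 array 2 at 0.3934 with null array 2. Because the FHT-WT1 arrays did not share a pattern, results are also given without single arrays.

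TAF1 (YGR274C) lay at -3.52 and -3.46 on the null arrays and at -0.06 and -0.63 on the FHT-WT1 arrays. Both null arrays were far below both FHT-WT1 arrays. Its ratio was 8.83-fold lower in the null strain, a log2 difference of -3.14 ± 0.21 (standard error of the model, 2 arrays a group; adjusted p = 2.66e-05, limma with Benjamini-Hochberg adjustment). It was the largest fall among the tested genes. Of the named genes, TAF1 alone kept its call when each of the 14 arrays was left out in turn, with differences of -2.91 to -3.38 over the 4 compared arrays.

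Across the 5535 genes, 332 differed between the null strain and FHT-WT1 at an adjusted p under 0.05 (6.0% of genes tested), and these are called below. Of them, 105 rose in the null strain (1.9%) and 227 fell (4.1%). The changes were mostly modest, with a median of 0.597 for the called rises and -0.590 for the called falls, and 13 genes passed a 2-fold change, 9 of them higher. For 323 of the 332 genes both null arrays lay on the same side of both FHT-WT1 arrays, against 2177 of all genes tested (39.3%). Calls and separation come from the same arrays, so the 323 are no separate support for the calls. The count rested on single arrays. It was 39 when FHT-WT1 array 1 was left out, 42 for FHT-WT1 array 2, 1 for null array 2 (TAF1) and 709 for null array 1. It was 189 with either DT1 array left out and 112 with either TF1 array, which enter through the shared estimate of spread. With arrays as deposited and not centred, 38 genes were called, 31 higher and 7 lower. Scaling arrays to one spread left 1 call, quantile normalisation 1, dropping the dye term 3 and fitting only the 4 compared arrays 1, or 90 with a dye term. The count was 168 with the sign of homotypic array 2 reversed, and the sources used here do not give that sign.

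Differences taken within one dye orientation were also compared, null array 1 with FHT-WT1 array 1 in Cy5 and null array 2 with FHT-WT1 array 2 in Cy3. The Cy5 and Cy3 differences correlated at r = 0.400 over 5535 genes, which are not independent replicates, and each array of a pair shares its strain and the reference. Both differences had the same sign for 3505 genes (63.3%). The Cy3 differences spread more widely, with an SD of 0.390 against 0.288.

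**Figure D1:**
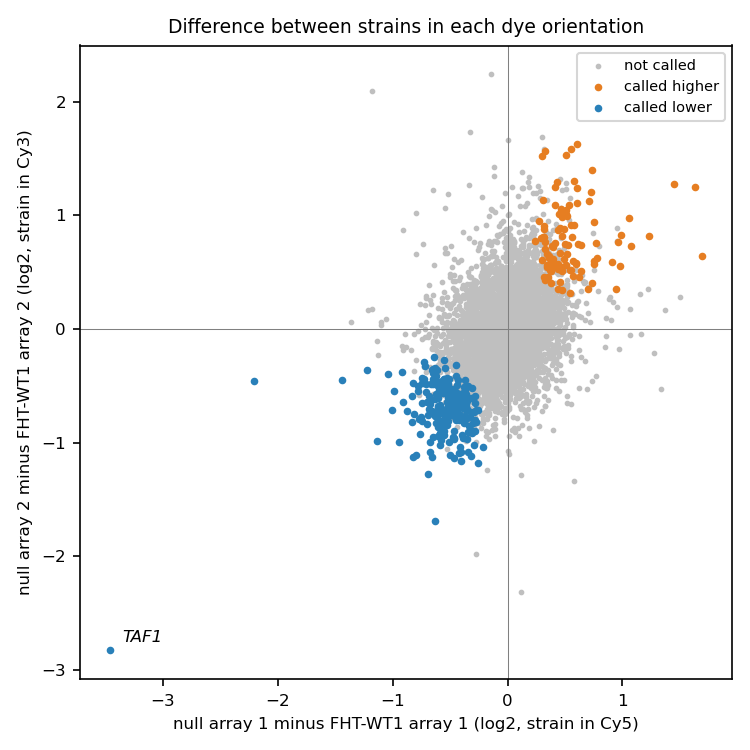
The difference between null and FHT-WT1 arrays within Cy5 (x axis) is plotted against that within Cy3 (y axis), in log2 units, for each of the 5535 tested genes. The 332 called genes lie in the quadrants where both differences have the same sign, which largely follows from calling them on these arrays. TAF1 stands alone at the far lower left.

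Set against the reference strain alone, the null arrays gave more calls than against FHT-WT1. The median standard error was 0.094 over the reference and 0.133 against FHT-WT1, so the counts also differ in precision. In the null strain over the reference, 2098 genes were called (37.9%), 971 higher (17.5%) and 1127 lower (20.4%). In FHT-WT1 over the reference limma called 0 genes (0.0%), and 616 had an unadjusted p under 0.05. Both comparisons use the same reference, and the null arrays are shared with the comparison to FHT-WT1, so the counts are not independent. Arrays scaled to one spread gave 958 genes for null and 274 for FHT-WT1.

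The genes described next had the largest called rises and falls among those whose groups did not overlap, so that separation was a condition for naming them. MEP2, the high-affinity ammonium permease, lay at 2.06 and 1.39 on the null arrays and at 0.43 and 0.15 on the FHT-WT1 arrays, a difference of 1.44 ± 0.28 (adjusted p = 0.0213). DUR3, a urea and polyamine transporter, lay at 1.81 and 1.64 against 0.37 and 0.36, a difference of 1.36 ± 0.25 (adjusted p = 0.0182). AGP1, a broad amino acid permease, was at 0.84 and 1.2 against 0.11 and -0.00, and it rose by 0.97 ± 0.18 (adjusted p = 0.0187). MEP2 was higher on null array 1 and AGP1 on null array 2, while DUR3 was alike on both. GDH1, the NADP-dependent glutamate dehydrogenase that fixes ammonium, was at 0.74 and 0.97 on the null arrays and at 0.19 and -0.62 on the FHT-WT1 arrays, and it rose by 1.07 ± 0.27 (adjusted p = 0.038). JEN1, the lactate and pyruvate transporter, lay at 0.29 and 1.29 against -0.04 and -0.27, a rise of 0.95 ± 0.22 (adjusted p = 0.0357). Null array 2 was well above null array 1 for JEN1. Without null array 2 none of these calls held, with adjusted p from 0.0882 for MEP2 to 0.277 for JEN1. With FHT-WT1 array 2 left out none held either, and GDH1 dropped to 0.56 (adjusted p = 0.257) and JEN1 to 0.54 (adjusted p = 0.216). MEP2 lost its call with any of the 4 compared arrays left out.

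Other large rises were of mixed function. GPD1, which makes glycerol 3-phosphate for osmotic glycerol production, lay at 1.08 and 1.17 on the null arrays and at 0.03 and 0.19 on the FHT-WT1 arrays, a difference of 1.02 ± 0.16 (adjusted p = 0.0172). GUT2, the mitochondrial enzyme that oxidises glycerol 3-phosphate, was at 0.55 and 1.46 against 0.04 and -0.07, a difference of 1.02 ± 0.26 (adjusted p = 0.0382). BDH2, of the alcohol dehydrogenase family, was at 1.15 and 1.03 against -0.07 and 0.22, a difference of 1.02 ± 0.15 (adjusted p = 0.0139). GPD1 and BDH2 were alike on both null arrays, and GUT2 was much higher on null array 2. OYE3, an NADPH oxidoreductase, was at 0.64 and 1.09 against 0.06 and -0.21, and rose by 0.94 ± 0.19 (adjusted p = 0.0229). HRP1, an RNA-binding subunit of the mRNA cleavage factor, was at 0.80 and 1.58 against 0.06 and 0.18, and rose by 1.07 ± 0.24 (adjusted p = 0.0315). FET5, a multicopper oxidase of the vacuole, stood at 0.21 and 0.29 on the null arrays and at -1.48 and -0.35 on the FHT-WT1 arrays, so its rise of 1.17 ± 0.25 (adjusted p = 0.0298) came with low FHT-WT1 values, and in the null strain over the reference it was 0.25 (adjusted p = 0.287). Without FHT-WT1 array 1 the FET5 difference was 0.57 (adjusted p = 0.0836). None of these 6 genes was called without null array 2. With FHT-WT1 array 1 left out none was called, and with FHT-WT1 array 2 left out GUT2, OYE3 and HRP1 were not (adjusted p = 0.246, 0.107 and 0.151).

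**Figure D2:**
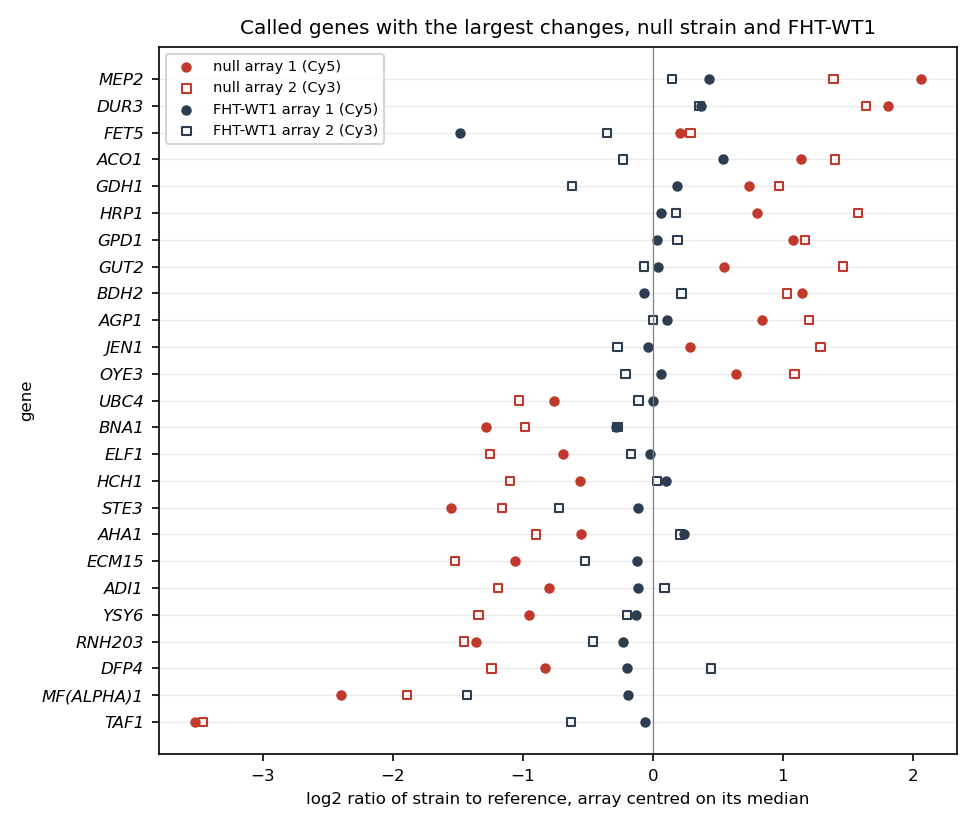
Log2 ratios to the reference on each centred array (x axis) are shown for TAF1 and the genes with the largest called rises and falls, with null and FHT-WT1 arrays in separate colours and filled and open marks for the strain in Cy5 and Cy3. Null points lie right of both FHT-WT1 points for the rises and left of them for the falls.

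The largest falls after TAF1 were of several kinds. MF(ALPHA)1, which encodes alpha-factor pheromone, lay at -2.40 and -1.89 on the null arrays and at -0.19 and -1.43 on the FHT-WT1 arrays, and fell by 1.33 ± 0.33 (adjusted p = 0.0376). FHT-WT1 array 2 was itself low, and without FHT-WT1 array 1 the MF(ALPHA)1 difference was -0.67 (adjusted p = 0.214). DFP4 was at -0.83 and -1.24 against -0.20 and 0.45, a difference of -1.16 ± 0.20 (adjusted p = 0.0181). RNH203, a subunit of ribonuclease H2, was at -1.36 and -1.45 against -0.23 and -0.46, a difference of -1.06 ± 0.14 (adjusted p = 0.0126). ECM15 was at -1.06 and -1.52 against -0.12 and -0.52, a difference of -0.97 ± 0.12 (adjusted p = 0.00628). DFP4, RNH203 and ECM15 stayed called without either FHT-WT1 array and without null array 1. When null array 2 was left out their adjusted p was 0.146, 0.0956 and 0.0621.

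Further large falls touched methionine salvage, NAD synthesis, transcription elongation and the ubiquitin system. ADI1, the acireductone dioxygenase of methionine salvage, was at -0.80 and -1.19 on the null arrays and at -0.11 and 0.09 on the FHT-WT1 arrays, a difference of -0.98 ± 0.16 (adjusted p = 0.0173). YSY6, a small protein linked to secretion, was at -0.95 and -1.34 against -0.13 and -0.20, a difference of -0.98 ± 0.22 (adjusted p = 0.0299). Null array 2 was the lower null array for both. BNA1, an enzyme of NAD synthesis from tryptophan, was at -1.28 and -0.98 against -0.28 and -0.27, a difference of -0.86 ± 0.16 (adjusted p = 0.0182). ELF1, a transcription elongation factor, was at -0.69 and -1.25 against -0.02 and -0.17, a difference of -0.88 ± 0.16 (adjusted p = 0.0182). UBC4, a ubiquitin-conjugating enzyme, was at -0.76 and -1.03 against 0.00 and -0.11, a difference of -0.84 ± 0.19 (adjusted p = 0.031). Null array 1 was the lower null array for BNA1 and null array 2 for ELF1 and UBC4. With null array 2 left out, the calls of all 5 genes were lost, with adjusted p from 0.114 to 0.235. YSY6, BNA1 and ELF1 were also lost with either FHT-WT1 array left out, ADI1 with FHT-WT1 array 2, and UBC4 with any of the 4 compared arrays (adjusted p from 0.065 to 0.166).

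Cytosolic ribosomal protein genes, which build both subunits of the cytosolic ribosome, were the largest list and moved one way. Of 134 tested, 36 fell (26.9%) and none rose, against falls of 4.1% of all genes. The median difference was -0.44, against -0.01 over all tested genes, and 131 of the 134 differences were below 0. The list median was -0.54 and -0.76 on the null arrays and -0.15 and -0.27 on the FHT-WT1 arrays, so every array median was below 0 and the null arrays were lower. Both null arrays lay below both FHT-WT1 arrays for 102 of the 134 genes, against 21.1% of all genes. This list was also low in the other construct strains, with a median level over the reference of -0.65 in the null strain and of -0.52, -0.64, -0.78 and -0.48 in DT1, TF1, HT4 and PB1.

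RPL27A, of the large subunit, lay at -0.81 and -0.91 on the null arrays and at -0.11 and -0.08 on the FHT-WT1 arrays, a difference of -0.77 ± 0.12 (adjusted p = 0.0172). RPL35A was at -0.78 and -0.92 against -0.18 and -0.05, a difference of -0.73 ± 0.13 (adjusted p = 0.0181), and its copy RPL35B was at -0.61 and -0.91 against -0.13 and 0.04, a difference of -0.71 ± 0.13 (adjusted p = 0.0182). RPS27B, of the small subunit, was at -0.55 and -0.75 against -0.01 and 0.04, a difference of -0.67 ± 0.12 (adjusted p = 0.0181). These 4 genes had the largest test statistics of the list in this same comparison, so their separation follows from the choice. Large and small subunit genes were alike, with a median of -0.43 over 74 RPL genes (20 called) and -0.46 over 55 RPS genes (15 called), and 5 stalk genes had a median of -0.32 (1 called). The extremes, chosen after their values were seen, were RPL41B at 0.13, RPS14B at 0.06 and RPL4B at 0.01 on one side and RPS10B at -0.78, RPP1A at -0.80 and RPS17B at -0.81 on the other. In 57 duplicated pairs the copies differed by a median of -0.02 (copy A minus copy B, from -0.57 to 0.46, SD 0.19), and both copies were below 0 in 54 pairs. PCR products of near-identical copies can bind each other's transcripts, so copies are not independent measurements. The 36 falls became 0 with FHT-WT1 array 1 left out, 3 with FHT-WT1 array 2, 0 with null array 2 and 72 with null array 1. They became 23 with either DT1 array left out, and 12 with either TF1 array. No ribosomal protein gene was called with arrays as deposited, scaled, quantile normalised, without the dye term or with only the 4 arrays. The 4 arrays with a dye term gave 6 falls. The median could move in 7 of the 24 alternatives, where it ran from -0.59 to -0.16.

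Protein synthesis genes outside the cytosolic ribosome did not move as one. Of 69 mitochondrial ribosomal protein genes, 1 fell, MRPS8, at -0.49 and -0.80 on the null arrays and -0.03 and -0.24 on the FHT-WT1 arrays, a difference of -0.51 ± 0.12 (adjusted p = 0.031). The median of that list was 0.01, and falls were 1.45% of it, against 4.1% of all genes. Of 56 ribosome biogenesis genes, which assemble ribosomes in the nucleolus, RRP12 rose by 0.57 ± 0.12 (adjusted p = 0.0289) and UTP20 fell by 0.44 ± 0.11 (adjusted p = 0.0376). Rises and falls were each 1.79% of that list, against 1.9% rises and 4.1% falls of all genes. Its median was -0.05, or 0.03 with arrays scaled to one spread. None of these 3 calls held without null array 2 or either FHT-WT1 array.

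Genes of the tricarboxylic acid and glyoxylate cycles, which oxidise acetyl units and turn them into sugar precursors, rose in part. Of 28 tested, 8 rose (28.6%) and none fell, against rises of 1.9% of all genes. The median difference was 0.63, and the list median was 0.47 and 0.70 on the null arrays against 0.09 and -0.15 on the FHT-WT1 arrays, with no overlap. Both null arrays were above both FHT-WT1 arrays for 21 of the 28 genes, against 18.2% of all genes. ACO1, aconitase, had the largest rise, at 1.14 and 1.40 against 0.54 and -0.23, a difference of 1.12 ± 0.25 (adjusted p = 0.0299). ICL1, isocitrate lyase of the glyoxylate cycle, was at 0.76 and 0.94 against 0.30 and -0.09, a difference of 0.74 ± 0.16 (adjusted p = 0.0277). MLS1, malate synthase of the same cycle, was at 0.64 and 1.17 against 0.09 and 0.25, a difference of 0.73 ± 0.13 (adjusted p = 0.0181). The null arrays were higher throughout, which largely follows from naming genes by large changes in this comparison. FHT-WT1 array 2 was the lowest array for ACO1 and ICL1. IDP2, the cytosolic NADP-dependent isocitrate dehydrogenase, was at 0.81 and 0.75 against 0.31 and -0.27, a difference of 0.76 ± 0.14 (adjusted p = 0.0203). FBP1, fructose-1,6-bisphosphatase of gluconeogenesis, was at 0.43 and 0.39 against -0.19 and -0.36, a difference of 0.68 ± 0.15 (adjusted p = 0.0298). The 8 rises became 4 with FHT-WT1 array 1 left out, 0 with FHT-WT1 array 2, 0 with null array 2, 16 with null array 1 and 4 with either TF1 array. They became 4 with arrays as deposited, and 0 when arrays were scaled or quantile normalised, without the dye term or with only the 4 arrays. The 4 arrays with a dye term gave 5 rises. Where an alternative could move the median, it lay between 0.42 and 0.77.

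Arginine synthesis genes were few and mixed. Of 8 tested, 4 rose and none fell, against 1.9% rises and 4.1% falls of all genes. ARG1, argininosuccinate synthetase, was at 0.87 and 1.30 on the null arrays and at 0.27 and 0.06 on the FHT-WT1 arrays, a difference of 0.92 ± 0.16 (adjusted p = 0.0181). ARG3, ornithine carbamoyltransferase, was at 0.75 and 0.84 against -0.33 and 0.11, a difference of 0.90 ± 0.15 (adjusted p = 0.0172), and ARG8, acetylornithine aminotransferase, was at 0.49 and 0.70 against -0.02 and -0.34, a difference of 0.78 ± 0.12 (adjusted p = 0.0172). Those 3 were separate between groups, but list members were named for large test statistics in this comparison. ARG4, argininosuccinate lyase, was at 1.06 and 0.28 against 0.36 and -0.08, so its rise of 0.53 ± 0.13 (adjusted p = 0.0376) came with groups that overlapped. The median over the list was 0.51, and median levels over the reference were 0.63 in the null strain and, for DT1, TF1, HT4 and PB1 in that order, 0.25, 0.29, 0.22 and 0.16. The difference from the mean of those strains had a list median of 0.31. It was not called for any of the 8 genes, but only 0.163% of all genes were called, so that count says little. The 4 rises became 2 with FHT-WT1 array 1 left out, 1 with FHT-WT1 array 2 and 0 with null array 2.

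Other amino acid synthesis genes had a lower median, 0.15 over 52 genes, with 4 rises and 1 fall. Rises were 7.69% and falls 1.92% of the list, against 1.9% and 4.1% of all genes. LYS1 (lysine) was at 0.70 and 0.43 on the null arrays against 0.06 and -0.08, a difference of 0.58 ± 0.10 (adjusted p = 0.0182). ILV3 (branched chain amino acids) was at 0.40 and 0.43 against -0.05 and -0.45, a difference of 0.66 ± 0.12 (adjusted p = 0.0187). TRP1, of tryptophan synthesis, was the one fall, at -0.51 and -0.72 against -0.02 and 0.04, a difference of -0.62 ± 0.14 (adjusted p = 0.035). TRP1 and LEU2 are also common selection markers. Growth in medium lacking leucine needs a working LEU2 in every strain, but its copy number and the other markers are not given. A part of marker copies in these changes was not tested. LEU2 was at 0.46 and 0.71 on the null arrays and at 0.19 and -0.24 on the FHT-WT1 arrays, a rise of 0.61 ± 0.15 (adjusted p = 0.0376). The list had 0 calls without null array 2 or FHT-WT1 array 2, and 2 without FHT-WT1 array 1 or either DT1 or TF1 array.

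Nitrogen catabolite repressed genes, which are shut while good nitrogen sources last, had 2 rises of 26 tested, MEP2 and DUR3, and no falls. The rises were 7.69% of the list, against 1.9% of all genes. Their median difference was 0.32, with array medians of 0.48 and 0.30 in the null strain and 0.09 and 0.07 in FHT-WT1. Both null arrays were above both FHT-WT1 arrays for 20 of the 26 genes, against 18.2% of all genes. Over the reference, 20 of the 26 rose in the null strain, against 17.5% of all genes. MEP2 and DUR3 were also high in the other strains. Mean levels in DT1, TF1, HT4 and PB1 were 1.95, 2.03, 1.93 and 1.34 for MEP2 and 1.8, 1.75, 1.88 and 1.4 for DUR3. With null array 2 or either FHT-WT1 array left out, no gene of this list was called.

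Stress and storage genes, of the general stress response and of trehalose and glycogen metabolism, had 6 rises of 30 tested (20.0%, against 1.9% of all genes) and no falls, with a median of 0.35. This list was also above the reference in the other strains. Its median level was 0.48 in the null strain and 0.18, 0.38, 0.58 and 0.48 in DT1, TF1, HT4 and PB1. CTT1, the cytosolic catalase, was at 1.12 and 0.90 on the null arrays and 0.22 and 0.31 on the FHT-WT1 arrays, a difference of 0.75 ± 0.17 (adjusted p = 0.031). PGM2, phosphoglucomutase, was at 0.72 and 0.88 against 0.20 and -0.12, a difference of 0.76 ± 0.16 (adjusted p = 0.0273). NTH1, neutral trehalase, was at 0.82 and 0.72 against 0.27 and 0.21, a difference of 0.53 ± 0.12 (adjusted p = 0.0298). In each the null arrays were clear of the FHT-WT1 arrays, which largely follows from naming members by their test statistic. GLC3, the glycogen branching enzyme, was at 0.14 and 0.97 against -0.33 and -0.01, a difference of 0.73 ± 0.18 (adjusted p = 0.0382), and rested mainly on null array 2. The list had 0 calls without FHT-WT1 array 1, with null array 2 left out or with arrays as deposited. It had 1 without FHT-WT1 array 2 or either TF1 array.

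Glycolysis and fermentation genes had 2 rises of 22, GLK1, glucokinase (0.73 ± 0.18, adjusted p = 0.0385), and TDH1, a glyceraldehyde 3-phosphate dehydrogenase (0.64 ± 0.17, adjusted p = 0.0459). GLK1 was at 0.67 and 0.70 on the null arrays and 0.22 and -0.31 on the FHT-WT1 arrays, and TDH1 at 1.0 and 0.44 against 0.47 and -0.30, where the groups overlapped. The rises against FHT-WT1 were 9.09% of the list, against 1.9% of all genes. Over the reference 18 of the 22 genes rose, against 17.5% of all genes. Of 11 glycerol genes 2 rose (18.2%), GPD1 and GUT2. Of 16 hexose transporter and sensor genes and 7 galactose genes none was called by limma, and the galactose list had median array levels of 0.02 and 0.17 in the null strain and 0.06 and -0.15 in FHT-WT1. GAL1, the galactokinase, was at 0.60 and -0.00 against 0.33 and -0.16, a difference of 0.21 ± 0.17 (adjusted p = 0.472). Respiratory chain and ATP synthase genes had 1 rise, CYT1 (0.61 ± 0.15, adjusted p = 0.0363), and 1 fall, ATP15 (-0.53 ± 0.13, adjusted p = 0.0376), of 34. That was 2.94% each way, against 1.9% rises and 4.1% falls of all genes. Iron and copper uptake genes had 4 rises (17.4%) and 1 fall (4.35%) of 23. ARN1, a siderophore transporter, was at 0.55 and 0.97 against 0.08 and -0.08 (0.76 ± 0.20, adjusted p = 0.0473). ATX1, a copper chaperone, was at -0.91 and -1.05 against -0.50 and -0.01 (-0.73 ± 0.14, adjusted p = 0.0223). No call on these 6 lists held without null array 2.

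**Figure D3:**
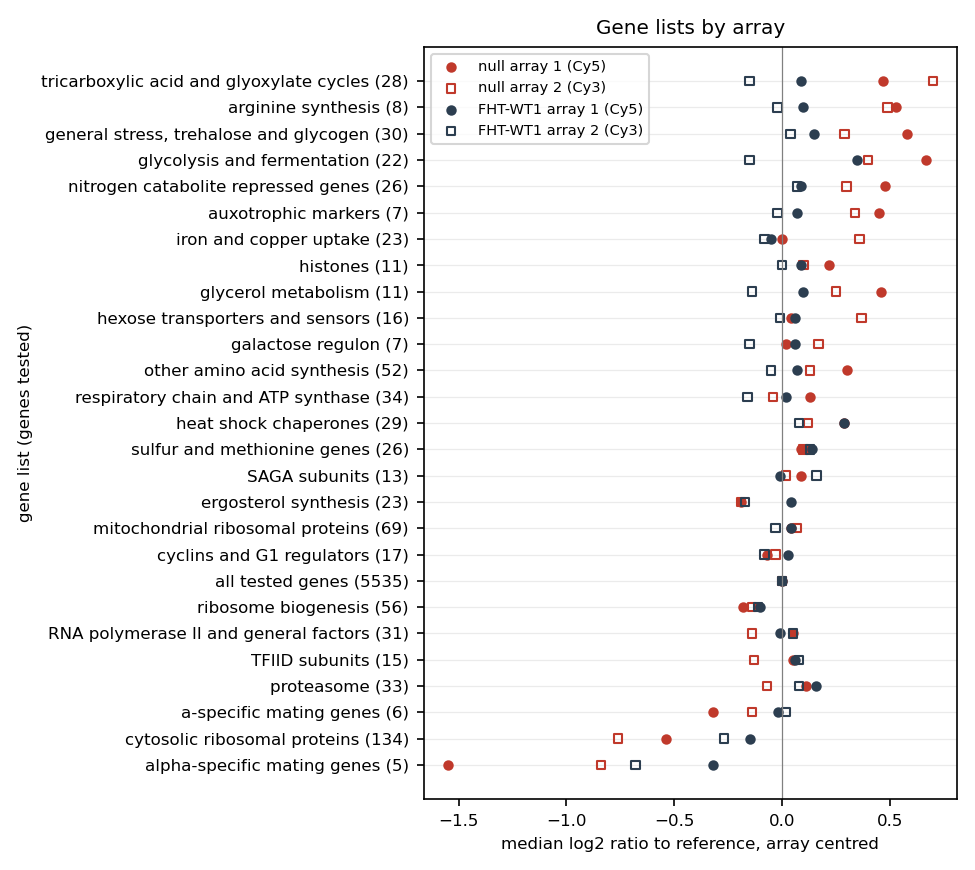
Median log2 ratio to the reference over each list (x axis, arrays centred) is shown for each of the 4 compared arrays, with lists ordered by the median difference. The ribosomal protein medians lie at -0.54 and -0.76 on the null arrays and the cycle gene medians at 0.47 and 0.70, outside the FHT-WT1 medians of the same list.

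Heat shock chaperones fold proteins after heat. Of 29 tested, 2 fell (6.9%, against 4.1% of all genes) and none rose. The list median of 0.10 changed sign, to -0.17 without null array 2 and -0.14 with arrays scaled to one spread. AHA1, the Hsp90 co-chaperone that stimulates its ATPase, lay at -0.55 and -0.90 on the null arrays and at 0.24 and 0.21 on the FHT-WT1 arrays, a difference of -0.95 ± 0.22 (adjusted p = 0.0316). HCH1, a related Hsp90 co-chaperone, was at -0.56 and -1.10 against 0.10 and 0.03, a difference of -0.89 ± 0.22 (adjusted p = 0.0376). Both were lower on each null array than on any FHT-WT1 array, which largely follows from how they were chosen. In the other strains AHA1 had mean levels of -0.05, 0.03, 0.08 and -0.06 and HCH1 of -0.33, -0.25, -0.27 and -0.10 (DT1, TF1, HT4 and PB1), and the null strain differed from their mean by -0.73 (adjusted p = 0.12) and -0.59 (adjusted p = 0.195), which was not called. SSA4, an inducible Hsp70, was at 1.23 and 1.43 against 0.68 and 0.28, a difference of 0.85 ± 0.31 (adjusted p = 0.123). The list median over the reference was 0.24 in the null strain and 0.22, 0.43, 0.42 and 0.76 in DT1, TF1, HT4 and PB1. With null array 2 left out the adjusted p was 0.205 for AHA1 and 0.225 for HCH1. Neither was called without FHT-WT1 array 1, FHT-WT1 array 2 or either TF1 array, and HCH1 was not called without null array 1.

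**Figure D4:**
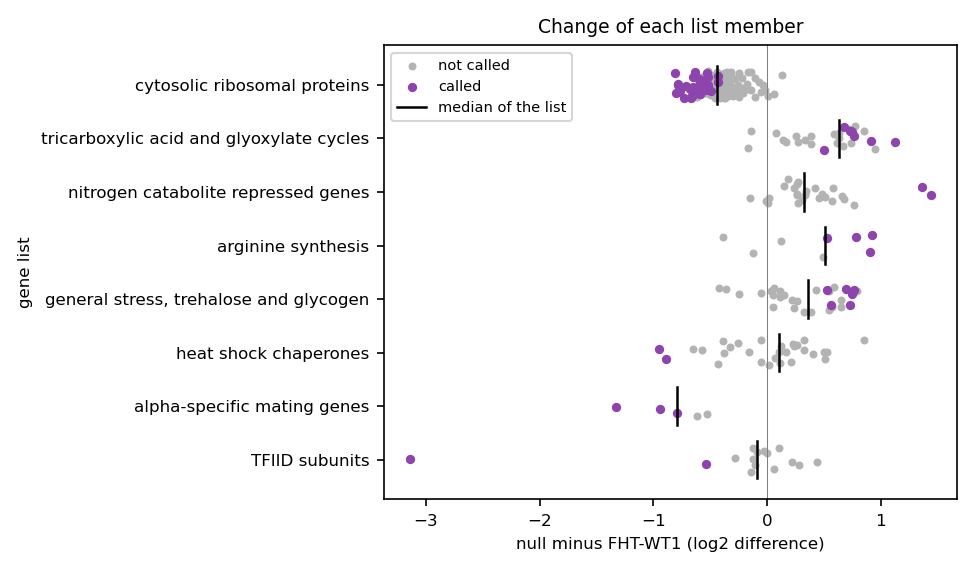
Each point is the log2 difference between null and FHT-WT1 arrays (x axis) of one member of the named list, with called members coloured and the list median drawn as a bar. The ribosomal protein list has its median at -0.44 and 131 of 134 members below 0, and the TFIID list holds TAF1 at -3.14.

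Among transcription factors of the same step, the other TFIID subunits moved little. Of 15 TFIID genes, TAF1 and TAF13 fell (13.3%, against 4.1% of all genes). That share counts TAF1, whose value set the direction of the ratios, so it does not describe the other subunits. Among those, TAF13 was the only call. TAF13, a histone-fold subunit, was at -0.46 and -0.46 on the null arrays and at -0.18 and 0.35 on the FHT-WT1 arrays, a difference of -0.54 ± 0.13 (adjusted p = 0.0376). With null array 2 left out it was -0.37 (adjusted p = 0.282). TAF8 was at 0.67 and 0.75 against 0.15 and 0.39, a difference of 0.44 ± 0.15 (adjusted p = 0.104). Of 13 SAGA genes none was called by limma, with a median of 0.06. Of 31 RNA polymerase II and general factor genes, RPB4 and CCL1 fell (6.45%, against 4.1% of all genes). RPB4, a polymerase stalk subunit, was at -0.52 and -0.38 against -0.05 and 0.28, a difference of -0.57 ± 0.11 (adjusted p = 0.0187), and CCL1, the cyclin of the TFIIH kinase, was at -0.60 and -0.34 against -0.21 and 0.36, a difference of -0.54 ± 0.13 (adjusted p = 0.0368). RPB4, CCL1 and TAF13 each kept the call for only 1 of the 4 compared arrays left out in turn. Their differences then ran from -0.63 to -0.51, from -0.76 to -0.33 and from -0.71 to -0.37.

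Mating type genes were tested as a check on cell type. Of 5 alpha-specific genes, which are on in alpha cells, 3 fell (against 4.1% of all genes), MF(ALPHA)1, STE3 and AFB1, and the median difference was -0.79. STE3, the a-factor receptor, lay at -1.55 and -1.16 on the null arrays and at -0.11 and -0.72 on the FHT-WT1 arrays, a difference of -0.94 ± 0.23 (adjusted p = 0.0363). AFB1, an a-factor barrier protein, was at -1.67 and -0.84 against -0.45 and -0.48, a difference of -0.79 ± 0.20 (adjusted p = 0.0431). The groups did not overlap for STE3 or AFB1. The list median over the reference was -1.25 in the null strain and -0.47 in FHT-WT1, and the construct strains (DT1, TF1, HT4, PB1) had medians of -1.27, -1.71, -1.53 and -1.56. Of 6 a-specific genes none was called by limma, and the median was -0.17. No alpha-specific gene was called with FHT-WT1 array 1, null array 1, null array 2, either DT1 or either TF1 array left out, or with arrays scaled to one spread.

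Other lists held few calls, to be read beside 1.9% rises and 4.1% falls of all genes. Of 11 histone genes HHT2, a histone H3 gene, rose (0.44 ± 0.11, adjusted p = 0.0376). Of 26 sulfur and methionine genes ADI1 fell, and of 23 ergosterol genes ERG26 fell (-0.44 ± 0.11, adjusted p = 0.0375). Limma called 0 of 17 cyclins and G1 regulators and 0 of 33 proteasome genes, with medians of -0.01 and -0.11, and CLB2, a mitotic cyclin, differed by 0.19 ± 0.14 (adjusted p = 0.408). None of HHT2, ADI1 and ERG26 was called without null array 2. Of the 332 called genes, 87 stood on a list.

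The called genes differed in length from the rest, a description added after the values were seen. With gene lengths of the R64 annotation, the median was 1266.0 bp over all tested genes, 1614.0 bp over the called rises and 669.0 bp over the called falls, or 653.5 bp over the 190 falls that are not ribosomal protein genes. The difference between null and FHT-WT1 correlated with length across genes at a Spearman rho of 0.341, and at 0.318 without ribosomal protein genes. The centred ratio on single arrays correlated with length at 0.254 and 0.325 on the null arrays, 0.117 and 0.058 on the FHT-WT1 arrays and 0.180 and -0.100 on the homotypic arrays. On the construct arrays the correlation was 0.281 and 0.26 for DT1, 0.255 and 0.298 for TF1, 0.247 and 0.267 for HT4 and 0.177 and 0.257 for PB1. It was therefore not particular to the null strain. Genes were also divided by length into 5 bins of like size. Outside the ribosomal protein list, the shortest bin had 10.5% falls and 0.378% rises, and the longest 1.18% falls and 2.17% rises. Of the 49 ribosomal protein genes in the shortest bin (at most 705 bp) the median difference was -0.46, with 15 called, against -0.18 over the other 1059 genes of that bin. The ribosomal protein genes had a median length of 771.0 bp and the cycle genes 1387.5 bp. The part of gene length in the list results was not tested.

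**Figure D5:**
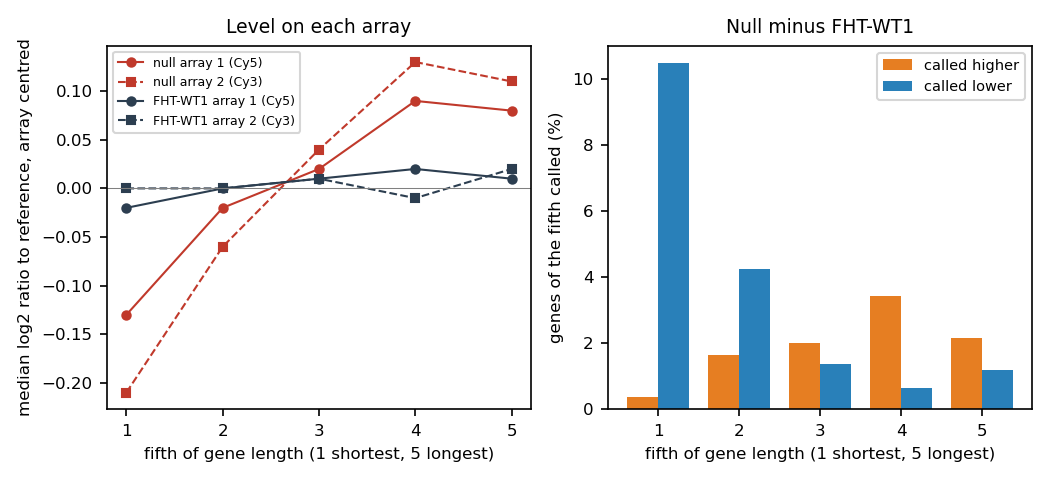
The left panel plots the median log2 ratio to the reference (y axis, arrays centred) in 5 bins of gene length (x axis, shortest to longest) for each of the 4 compared arrays, and the right panel the percentage of genes called higher or lower per bin, both without ribosomal protein genes. On the null arrays the medians go from -0.13 and -0.21 in the shortest bin to 0.08 and 0.11 in the longest, and falls are most common in the shortest bin, at 10.5%. The construct arrays, not drawn, had medians between -0.08 and -0.17 in the shortest bin.

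The null strain was set against the mean of the 4 construct strains as well. Limma called 9 genes, all lower in the null strain (0.163%), and 624 genes had an unadjusted p under 0.05. MET17, which makes homocysteine in sulfur assimilation and is also a selection marker, lay at 0.07 and -0.34 on the null arrays. It had means of 4.89, 4.84, 4.85 and 4.65 in DT1, TF1, HT4 and PB1, a difference of -4.94 (adjusted p = 8.2e-09). FHT-WT1 was at 0.07 and -0.39, so the construct strains were high and the null strain was not low. The labels do not give the MET17 genotype of the strains, and a part of strain genotype in this difference was not tested. BUD6, an actin regulator, had a difference of -1.72 (adjusted p = 0.000719) and EST2, the telomerase catalytic subunit, one of -0.97 (adjusted p = 0.0412). Neither MET17, BUD6 nor EST2 differed from FHT-WT1, at 0.03 ± 0.21, 0.13 ± 0.22 and -0.01 ± 0.20 (adjusted p = 0.96, 0.753 and 0.976). TAF1 differed from the construct mean by -2.93 (adjusted p = 1.99e-06), with construct means of -0.54, -0.49, -0.66 and -0.54. Of the 134 ribosomal protein genes none was called against the construct strains, with a median difference of -0.06. With 0.163% of all genes called, that count says little about the list.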

How the data were processed

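The deposited series table holds, per the submitters' design text, log2 ratios of 2-colour arrays that the authors mode-normalised in R and then corrected with B. subtilis spikes. The log2 scale was read from values such as the log2 of small whole-number ratios, and the direction is unstated. Scanner output was not used here. The table has 7056 features, of which 5579 carry one gene name and 1477 none. The 14 arrays held 6935 to 6971 values. Names came from the platform annotation, and 5543 of 5548 genes matched the R64 reference. Each array was centred on its median over named genes and features of a gene were averaged.

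Linear models (lmFit and eBayes of limma 3.58.1, R 4.3.3) covered all 14 arrays, with 7 groups of 2 and a term for dye orientation, two-sided, Benjamini-Hochberg over 5535 genes, threshold 0.05. The fit was tested on simulated data. The genes named are TAF1, the 12 largest called rises and falls with one sign in all pairings, and the extremes of the other contrasts. For each list, up to 4 members with the largest test statistics against FHT-WT1 were named too, so their separation is no separate support. Members, lists and tests were chosen with earlier results of these data known. The promoter description that was planned was not run. Depth is not defined for these arrays: their number limits the precision.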

Additional observations from a re-analysis of the deposited data

Results flagged for a closer look

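The null strain differed from the mean of DT1, TF1, HT4 and PB1, by a direct test in limma, for 9 genes. The differences were -4.94 for MET17, -2.93 for TAF1, -1.72 for BUD6, -0.97 for EST2, -0.85 for YDL038C, -0.69 for TYE7, -0.65 for INM1, -0.62 for SKS1 and -0.55 for ARV1, all with the null strain lower. MET17, BUD6 and EST2 lay near the reference in the null strain (-0.13, 0.16 and -0.01) and above it in the construct strains.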

How the results depend on the processing

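With arrays as deposited, scaled to one spread, quantile normalised, without the dye term, with only the 4 arrays, and with homotypic array 2 reversed, the calls against FHT-WT1 numbered 38, 1, 1, 3, 1 and 168 in place of 332; the 4 arrays with a dye term, added after seeing the data, gave 90. Over the reference the null strain had 1011, 958, 912, 1083 and 517 in place of 2098 in the first 5 settings, and FHT-WT1 had 3, 274 and 300 in place of 0 in the first 3. Against the construct mean, 9 became 20, 3, 3, 3 in the first 4 settings, 3 without the homotypic pair and 3 with homotypic array 2 reversed; the 4 arrays alone hold no construct. Leaving out each array gave 1 to 709, 703 to 2126, 0 to 21 and 3 to 131. The cause was not tested.

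Leaving out single arrays turned the sign of GAL4 (-0.01 to 0.41), CLB2 (-0.01 to 0.39), STE2 (-0.3 to 0.01), MET17 (-0.07 to 0.12), EST2 (-0.19 to 0.16) and PAL1 (-0.39 to 2.49), and of the list medians for SAGA (-0.05 to 0.06), ribosome biogenesis (-0.14 to 0.01), ergosterol (-0.17 to 0.1), heat shock (-0.17 to 0.25), cyclin (-0.04 to 0.06) and mitochondrial ribosomal protein genes (-0.03 to 0.03). Other settings turned MFA1 (0.12 scaled, 0.16 quantile), EST2 (0.05 as deposited), ribosome biogenesis (0.01 as deposited, 0.03 scaled, 0.04 quantile) and sulfur genes (-0.02 scaled, -0.01 quantile), heat shock genes (-0.14 scaled, -0.11 quantile) and cyclins (0.05 as deposited). The sign of homotypic array 2 is not stated. Array numbers follow dye orientation, which is already a term of the model; the labels give no other replicate number to pair by.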

Other observations

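Several gene groups on no earlier list held calls against FHT-WT1. These groups were drawn up after the values were seen, so their counts are descriptions, to be read beside 1.9% rises and 4.1% falls of all genes. Of 8 vacuolar peptidase genes, which degrade proteins in the vacuole, 4 rose, PRB1 by 0.85, PEP4 by 0.54, APE3 by 0.54 and ATG42 by 0.50. Of 11 genes for eisosomes, the membrane furrows of the cell cortex, 3 rose, LSP1 by 0.77, PIL1 by 0.57 and EIS1 by 0.39. Of 20 amino acid and peptide permeases 4 rose, AGP1 by 0.97, CAN1 by 0.91, PTR2 by 0.66 and AGP2 by 0.65. Among 19 ubiquitin-like modifiers and E2 enzymes 7 fell, including UBC4 by 0.84, UBC1 by 0.65, MMS2 by 0.64 and SMT3, the SUMO gene, by 0.56.

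Of 13 p24 and Erv genes, which sort cargo between the endoplasmic reticulum and the Golgi, 4 fell, ERV15 by 0.73, EMP24 by 0.70, ERV25 by 0.51 and ERV29 by 0.50. Of 9 prefoldin and nascent chain complex genes 3 fell, EGD2 by 0.66, GIM5 by 0.61 and EGD1 by 0.52. Of 7 Lsm genes, which bind the ends of RNAs, LSM6 fell by 0.66 and LSM5 by 0.50. The groups with falls had median lengths of 542.0, 648.0, 450.0 and 416.0 bp, and those with rises 1606.5, 1026.0 and 1807.5 bp. No gene of these groups was called without null array 2 or FHT-WT1 array 1, and without FHT-WT1 array 2 the eisosome group had 3 calls and the p24 group 1.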
